A study of Mus musculus with 6 samples.

Results

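MHC class II genes and their transactivator Ciita were followed in splenic NK cells (NKC) of 3 Runx3-/- and 3 WT mice. The members were H2-Aa, H2-Ab1, H2-Eb1, H2-DMa, H2-DMb1, H2-DMb2, H2-Oa, H2-Ob, Cd74 and Ciita, and they were chosen by name: a probe set was taken when the gene symbols given for it by the array's annotation were all among these 10. This gave 21 of the 45101 probe sets on the array. H2-DMb1 had no probe set of its own, as 2 probe sets name H2-DMb1 and H2-DMb2 together. A further probe set that names H2-Ob with Gm20506 was left out, and its values lay between 2.37 and 3.63 on the 6 arrays. All mice were of the ICR stock, which is outbred, and 6 weeks old. The groups differed in genotype, Runx3 -/- or WT, and shared everything else that the labels give. Cells were enriched from spleen by removing other lineages, then sorted for DX5, and were not stimulated (resting). DX5 is also found on some cells that are not NKC. The labels tie loss of Runx3 to no single cell type, and do not give the H2 haplotype of any mouse. The series describes the samples as individual mice, while the label for sex names both sexes for every sample, so whether a sample is 1 mouse is not settled here. Each array held RNA of 1 sample. Values are log2 after GC-RMA, a method that removes a background estimated from the base content of each oligonucleotide and gives all arrays a common distribution.

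An MHC class II molecule is an alpha and a beta chain, here H2-Aa with H2-Ab1 (I-A) or H2-Ea with H2-Eb1 (I-E), and it shows peptides taken up by the cell to CD4+ T cells. Cd74, the invariant chain, escorts the new pair to endosomes, where H2-DM (H2-DMa with H2-DMb1 or H2-DMb2) exchanges the leftover Cd74 fragment for peptide and H2-DO (H2-Oa with H2-Ob) restrains H2-DM. These genes are best known from B cells, dendritic cells and macrophages, while resting mouse NK cells are not regarded as professional antigen presenting cells. Ciita does not bind DNA itself. It is recruited to class II promoters by RFX on the X box and NF-Y on the Y box, and its own presence is the usual switch of the whole gene group.

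The promoters of the members are shown because class II genes are known to be regulated together through elements of their promoters. Promoter sequences from RefSeq (GRCm38.p6, 250 bases before to 50 after a gene's start) matched 7 of the 10 members, with 8 promoters in all, each on chromosome 17. No promoter sequence is printed for H2-Ab1, Cd74 and Ciita. The letters ATTGG, the core of the Y box, were found on either strand in 7 of the 8 promoters and in 37.4% of all 32851 promoters of that table. The windows below are 55 bases long, run 5′ to 3′ on the strand of the gene, and are aligned on the ATTGG nearest the usual place of the Y box, with 40 bases before it and 10 after. Capitals mark ATTGG and, where the window holds them, the letters AGNNACNGA, used here for the first part of the X box. Other forms of the X box were not searched, so a window without these letters is not shown to lack one.
H2-Oa (chr17:34092296-34092350, plus strand): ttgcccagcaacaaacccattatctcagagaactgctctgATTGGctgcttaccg
H2-DMb2 (chr17:34145119-34145173, plus strand): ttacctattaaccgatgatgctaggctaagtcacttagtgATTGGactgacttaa
H2-DMb1 (chr17:34153090-34153144, plus strand): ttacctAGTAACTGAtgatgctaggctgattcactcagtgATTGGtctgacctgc
H2-Ob (chr17:34238808-34238862, plus strand): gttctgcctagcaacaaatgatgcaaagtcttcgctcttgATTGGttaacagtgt
H2-Aa (chr17:34287857-34287911, minus strand): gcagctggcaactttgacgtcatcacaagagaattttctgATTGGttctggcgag
H2-Eb1 (chr17:34305768-34305822, plus strand): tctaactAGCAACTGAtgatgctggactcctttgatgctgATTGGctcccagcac
ATTGG began 43 to 90 bases before the start of these 6 genes. AGNNACNGA was found on either strand in 4 of the 8 promoters and in 17.7% of all promoters. It was followed by ATTGG within 60 bases in 2 of the 8, those of H2-DMb1 and H2-Eb1, and in 0.831% of all. Letters of the RUNX motif were searched on either strand in 4 forms: TGTGGT, held by 16.8% of all promoters, TGTGGC, held by 18.9%, TGCGGT, held by 6.45%, and TGCGGC, held by 12.4%. At least 1 of these was found in 5 of the 8 member promoters and in 45.2% of all. A match is a description of letters in a window and no measurement of binding.

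Probe sets of H2-Aa, H2-Ab1, H2-Eb1, H2-Ob and the H2-DM beta chains were higher in Runx3-/- than in WT NKC by the looser of 2 criteria and by neither lower, those of H2-DMa, H2-Oa and Cd74 did not pass, and no probe set of Ciita reached the level used for testing. A probe set was tested by limma when it reached log2 5 on at least 1 array, which 17 of the 21 did, and 11 of the 21 reached it on all 6 arrays. By the study's thresholds, an unadjusted p below 0.05 with a change of at least 1.5-fold, 8 of the 17 tested member probe sets were called higher (47.1%) and 0 lower. Of all 21, tested or not, this is 38.1%. Among the 19120 probe sets tested on the array, 6.85% were called higher and 6.78% lower by the same rule. None of the members passed a Benjamini-Hochberg (BH) rate of 5% in limma, which 0.0837% of all tested probe sets did, and their adjusted p ran from 0.133 to 0.954. The number of members with an unadjusted p below 0.05 was 8. The small number of arrays, 3 per group, limits the precision of every value given.

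The lowest Runx3-/- array lay above the highest WT array for 9 of the 17 tested member probe sets, while the converse held for 0. Of all tested probe sets, 7.99% separated in that way. The mean change was above 0 for all 21, from 0.04 to 2.21 on the log2 scale, with a median of 0.74 beside -0.06 for all tested probe sets and -0.04 for all probe sets of the array. This count includes 4 probe sets below log2 5 on all arrays, 3 of them of Ciita, for which no change could be measured. The changes of H2-DMb2 1443686_at and H2-Oa turned negative under some alternatives. Of the tested members, 3 reached log2 5 through Runx3-/- arrays alone, and 2 of the called probe sets are among them, so that these 2 had to be higher to be tested. Without any level required, 8 of the 21 were called higher beside 2.44% of the 45037 probe sets that are not controls. In the fit of the 19120 probe sets, counting the brightest probe set alone of each of the 9545 genes that have a probe set of a single symbol, 4.57% were called higher and 8.32% lower.

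**Figure D1:**
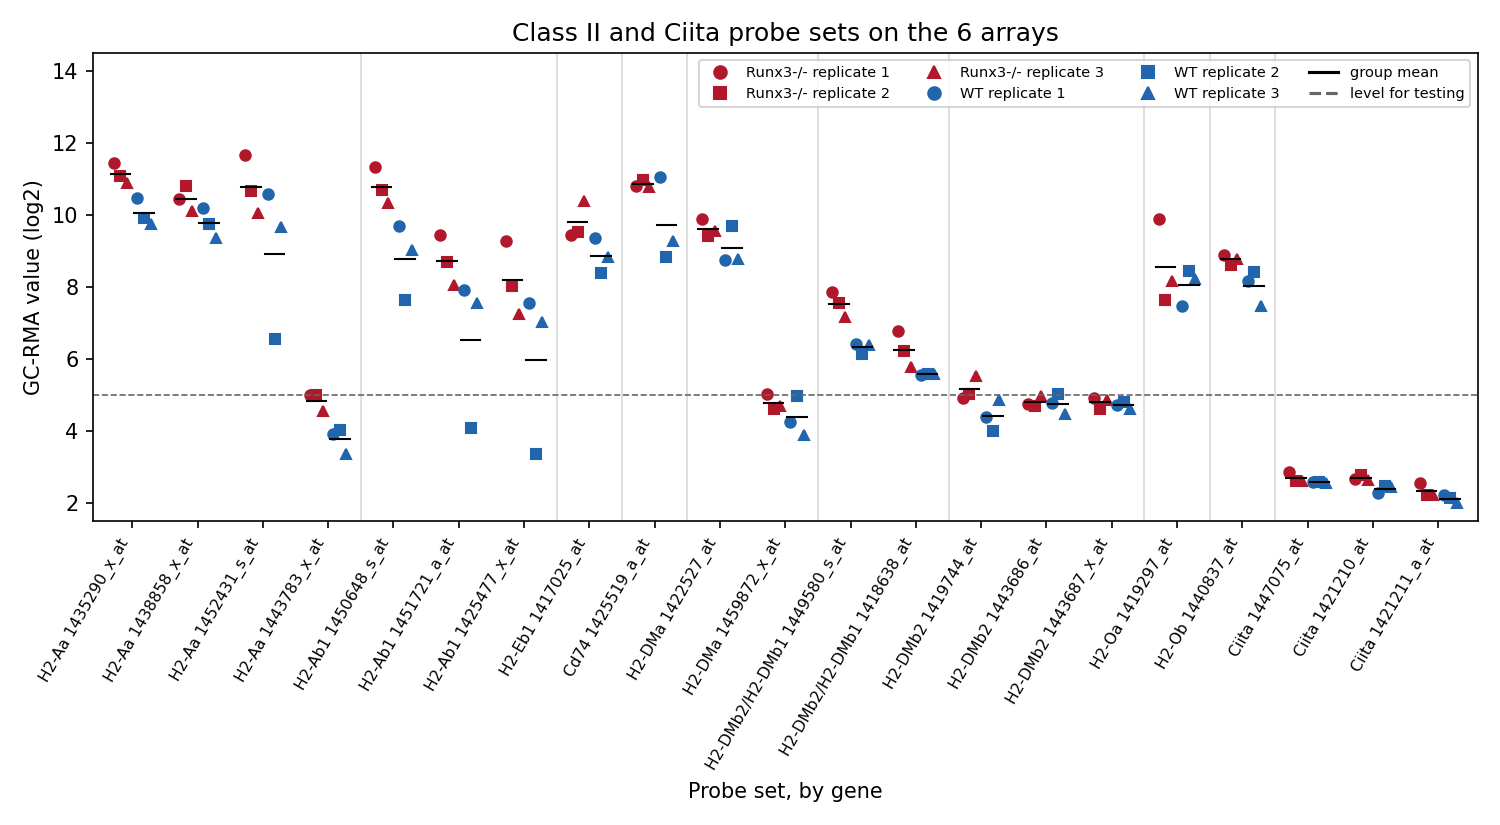
GC-RMA value (log2, vertical axis) of each of the 21 probe sets (horizontal axis, by gene) on the 3 Runx3-/- arrays (red) and the 3 WT arrays (blue). Black lines are group means and the dashed line marks log2 5. The WT replicate 2 array stands low in 3 probe sets of H2-Aa and H2-Ab1, and the 3 probe sets of Ciita lie between 2.01 and 2.86.

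H2-Aa encodes the alpha chain of I-A and was read by 4 probe sets. The first, 1435290_x_at, was at 11.43, 11.08 and 10.88 in Runx3-/- replicates 1 to 3 and at 10.48, 9.91 and 9.77 in WT replicates 1 to 3. All Runx3-/- arrays were thus above all WT arrays. The difference was 2.12-fold (1.08 on the log2 scale, SE 0.27, 95% CI 0.45 to 1.72, n = 3 per group, limma adjusted p = 0.186) and passed the study's thresholds. A second, 1438858_x_at, was at 10.46, 10.82 and 10.10 in Runx3-/- and at 10.19, 9.76 and 9.35 in WT. Here 1 WT array was above the lowest Runx3-/- array, and the difference of 0.69 (limma adjusted p = 0.341) did not pass. The third, 1452431_s_at, was at 11.66, 10.66 and 10.05 in Runx3-/- and at 10.57, 6.56 and 9.67 in WT. Its WT replicate 2 was far below the other 5 arrays, and its difference of 1.85 had a 95% CI from -0.47 to 4.18 (limma adjusted p = 0.416). The fourth, 1443783_x_at, lay between 4.56 and 5.01 in Runx3-/- and between 3.37 and 4.03 in WT. It was called, with a difference of 1.07 (limma adjusted p = 0.186), but only 1 array reached log2 5 and no fold is given.

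H2-Ab1, the beta chain of I-A, had changes of 2.0 or more in all 3 of its probe sets, which were the largest of the members with all 6 arrays but, in 2 of the 3, not without WT replicate 2. The brightest, 1450648_s_at, was at 11.33, 10.70 and 10.35 in Runx3-/- and at 9.70, 7.65 and 9.02 in WT. The groups did not overlap, and the level was 4.01-fold higher in Runx3-/- (2.0 on the log2 scale, SE 0.53, 95% CI 0.75 to 3.25, n = 3 per group, limma adjusted p = 0.197), past the study's thresholds. In 1451721_a_at the values were 9.44, 8.68 and 8.06 against 7.93, 4.08 and 7.55. These groups did not overlap either, but the spread in WT was wide, and a difference of 2.21 (at least 3.74-fold, counting values under log2 5 as 5) was not called (limma adjusted p = 0.348). In 1425477_x_at the values were 9.28, 8.02 and 7.26 against 7.55, 3.36 and 7.04. The lowest Runx3-/- array was below the highest WT array, and the difference of 2.20 (at least 3.15-fold) was not called (limma adjusted p = 0.388).

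The probe sets of these genes parted from each other on 1 array. In H2-Aa, 1435290_x_at exceeded 1452431_s_at by 3.34 in WT replicate 2, while this gap ran from -0.22 to 0.84 on the other 5 arrays. In H2-Ab1, 1450648_s_at exceeded 1451721_a_at by 3.56 in WT replicate 2, beside 1.47 to 2.28 on the others, and it exceeded 1425477_x_at by 4.29, beside 1.98 to 3.09. Probe sets of 1 gene thus gave different levels for 1 WT sample, in both chains of I-A. Without WT replicate 2 the difference was 0.67 for 1452431_s_at, 0.99 for 1451721_a_at and 0.89 for 1425477_x_at. It stayed at 1.01 for 1435290_x_at and 1.43 for 1450648_s_at, both still past the study's thresholds. Without WT replicate 1, the 3 probe sets that had the low value and 1438858_x_at passed these thresholds as well, at differences of 2.67, 2.91, 2.99 and 0.90. The labels do not give the class II alleles of these mice, and the cause of the gaps was not tested.

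**Figure D2:**
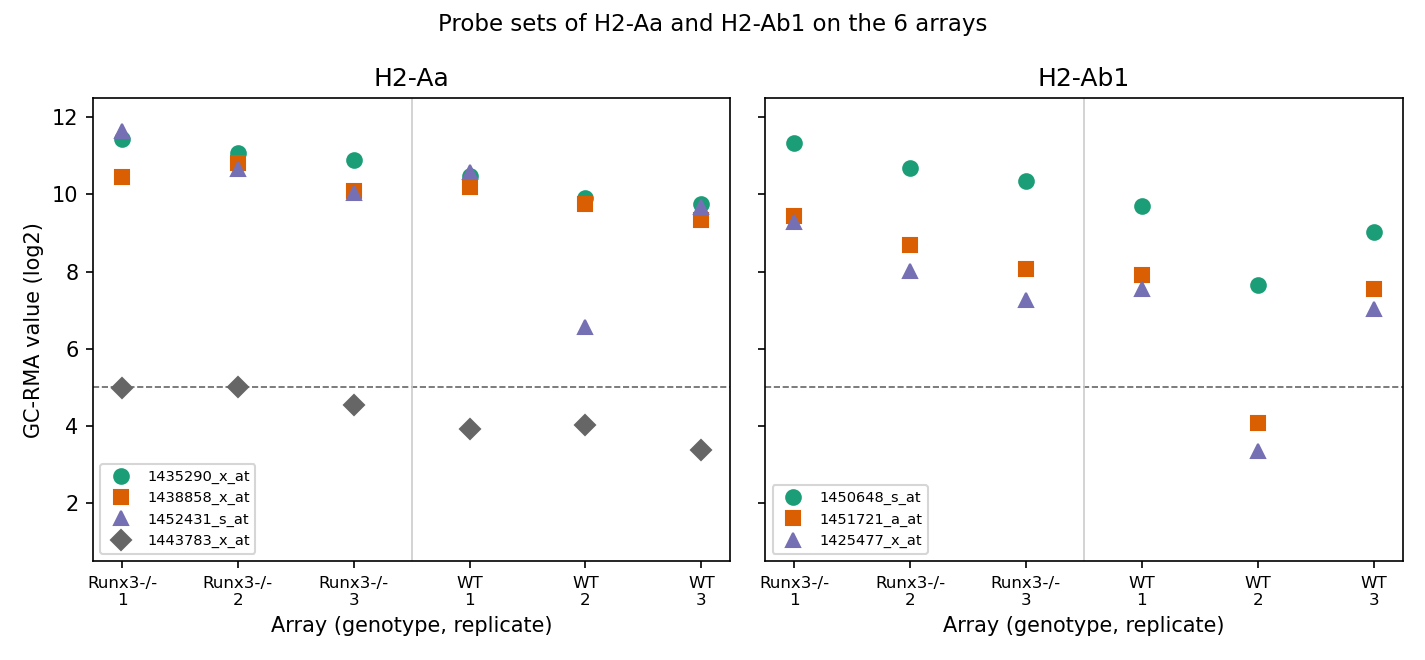
GC-RMA values (log2, vertical axis) of the 4 probe sets of H2-Aa (left) and the 3 of H2-Ab1 (right) on each of the 6 arrays (horizontal axis), with log2 5 dashed. On WT replicate 2, 1452431_s_at of H2-Aa falls to 6.56, and 1451721_a_at and 1425477_x_at of H2-Ab1 fall to 4.08 and 3.36, while 1435290_x_at of H2-Aa remains at 9.91.

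H2-Eb1 is the beta chain of I-E. Its probe set 1417025_at was at 9.46, 9.53 and 10.40 in Runx3-/- and at 9.35, 8.39 and 8.83 in WT. The groups did not overlap, although Runx3-/- replicate 1 and WT replicate 1 were close, and the level was 1.92-fold higher in Runx3-/- (0.94 on the log2 scale, SE 0.36, 95% CI 0.10 to 1.78, n = 3 per group, limma adjusted p = 0.295), past the study's thresholds. The call was lost without WT replicate 2 (difference 0.71), WT replicate 3 (0.93) or Runx3-/- replicate 3 (0.64). It was also lost without moderation of the variances, and held in 14 of 18 alternatives. Its partner chain H2-Ea, which was not among the members and is lost or silent in some mouse haplotypes, did not move with it. H2-Ea 1422891_at was at 6.69, 7.10 and 7.20 in Runx3-/- and at 6.08, 7.57 and 6.55 in WT, with the highest value in a WT mouse (difference 0.26, limma adjusted p = 0.777). Another probe set of H2-Ea, 1422892_s_at, was at 5.68 in Runx3-/- replicate 1, 4.30 in replicate 2 and 3.27 to 3.33 on the other 4 arrays. The single probe set of H2-Eb2, a beta chain gene beside H2-Eb1, was below log2 5 on all arrays.

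Cd74, the invariant chain, was at 10.82, 10.97 and 10.79 in Runx3-/- and at 11.05, 8.84 and 9.28 in WT in its single probe set, 1425519_a_at. The Runx3-/- arrays were close together, whereas WT replicate 1 was higher than all of them and the other 2 WT arrays were much lower. The difference was 2.20-fold (1.14 on the log2 scale, SE 0.54, 95% CI -0.13 to 2.40, n = 3 per group, limma adjusted p = 0.371) and did not pass the study's thresholds. Its size depended on which WT arrays were used. Without WT replicate 2 it was 0.69, and without WT replicate 1 it was 1.80 and passed BH 5% (limma adjusted p = 0.0430), the only member probe set to do so when any 1 array was left out.

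H2-DM loads peptide, and its beta chain was higher in Runx3-/- in both shared probe sets. The shared H2-DMb1 and H2-DMb2 probe set 1449580_s_at, for the beta chains, was at 7.88, 7.57 and 7.18 in Runx3-/- and at 6.43, 6.14 and 6.40 in WT. The groups stood clearly apart, and the level was 2.32-fold higher in Runx3-/- (1.22 on the log2 scale, SE 0.25, 95% CI 0.64 to 1.80, n = 3 per group). Its limma adjusted p of 0.133 was the lowest of all members. The second shared probe set, 1418638_at, was at 6.79, 6.21 and 5.77 against 5.56, 5.60 and 5.59. It was also called, at 1.60-fold (difference 0.68, limma adjusted p = 0.335), with all 3 WT arrays close together below the lowest Runx3-/- array. This call was lost whenever any array but Runx3-/- replicate 3 was left out, at differences of 0.41 to 0.70. Some changes of normalization and moderation also removed it, and it held in 6 of the 16 alternatives run on this probe set. The 3 other probe sets name H2-DMb2 alone, and their values lay near log2 5. Of these, 1419744_at was at 4.94, 5.02 and 5.53 against 4.41, 4.01 and 4.87 and was called (at least 1.14-fold, limma adjusted p = 0.311), which was lost without Runx3-/- replicate 2 or 3 or WT replicate 1 or 2. Some changes of background floor, normalization and moderation also removed this call, and it held in 8 of the 17 alternatives run on 1419744_at. The others, 1443686_at and 1443687_x_at, lay between 4.48 and 5.03 on all arrays, with differences of 0.04 and 0.09. Which of the beta chain genes gave the change in the shared probe sets cannot be told apart on this array.

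H2-DMa, the alpha chain of H2-DM, was at 9.90, 9.42 and 9.54 in Runx3-/- and at 8.75, 9.71 and 8.79 in WT in its brighter probe set, 1422527_at. WT replicate 2 was above 2 of the Runx3-/- arrays. The difference of 0.54 (95% CI -0.20 to 1.28, limma adjusted p = 0.453) did not pass, nor did that of the dim second probe set 1459872_x_at, which was 0.40 (limma adjusted p = 0.569). Both passed the study's thresholds without WT replicate 2, at differences of 0.85 and 0.70.

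The chains of H2-DO differed from each other in how far their groups separated. H2-Ob, the beta chain (1440837_at), was at 8.90, 8.63 and 8.79 in Runx3-/- and at 8.18, 8.41 and 7.49 in WT. The groups did not overlap, and it was 1.68-fold higher in Runx3-/- (0.75 on the log2 scale, SE 0.28, 95% CI 0.08 to 1.41, n = 3 per group, limma adjusted p = 0.293), past the study's thresholds. The call was lost without any 1 of the Runx3-/- arrays or without WT replicate 3, at differences of 0.48 to 0.82. It was also lost without moderation of the variances, and held in 13 of 18 alternatives. H2-Oa, the alpha chain (1419297_at), was at 9.88, 7.66 and 8.16 in Runx3-/- and at 7.48, 8.45 and 8.22 in WT. Only Runx3-/- replicate 1 was above the WT arrays. Its difference of 0.51 (95% CI -0.84 to 1.87, limma adjusted p = 0.698) became -0.14 without that array. The difference between the changes of H2-Oa and H2-Ob was not tested.

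Ciita was below log2 5 in all 3 of its probe sets on all 6 arrays, between 2.01 and 2.86. At this level differences mostly follow the background model, so no level or change of Ciita could be measured in either genotype. Runx3 itself was lower in Runx3-/- in its brighter probe set, with 7.76, 8.51 and 8.68 against 10.11, 11.56 and 10.73 (5.59-fold, limma adjusted p = 0.0960).

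**Figure D3:**
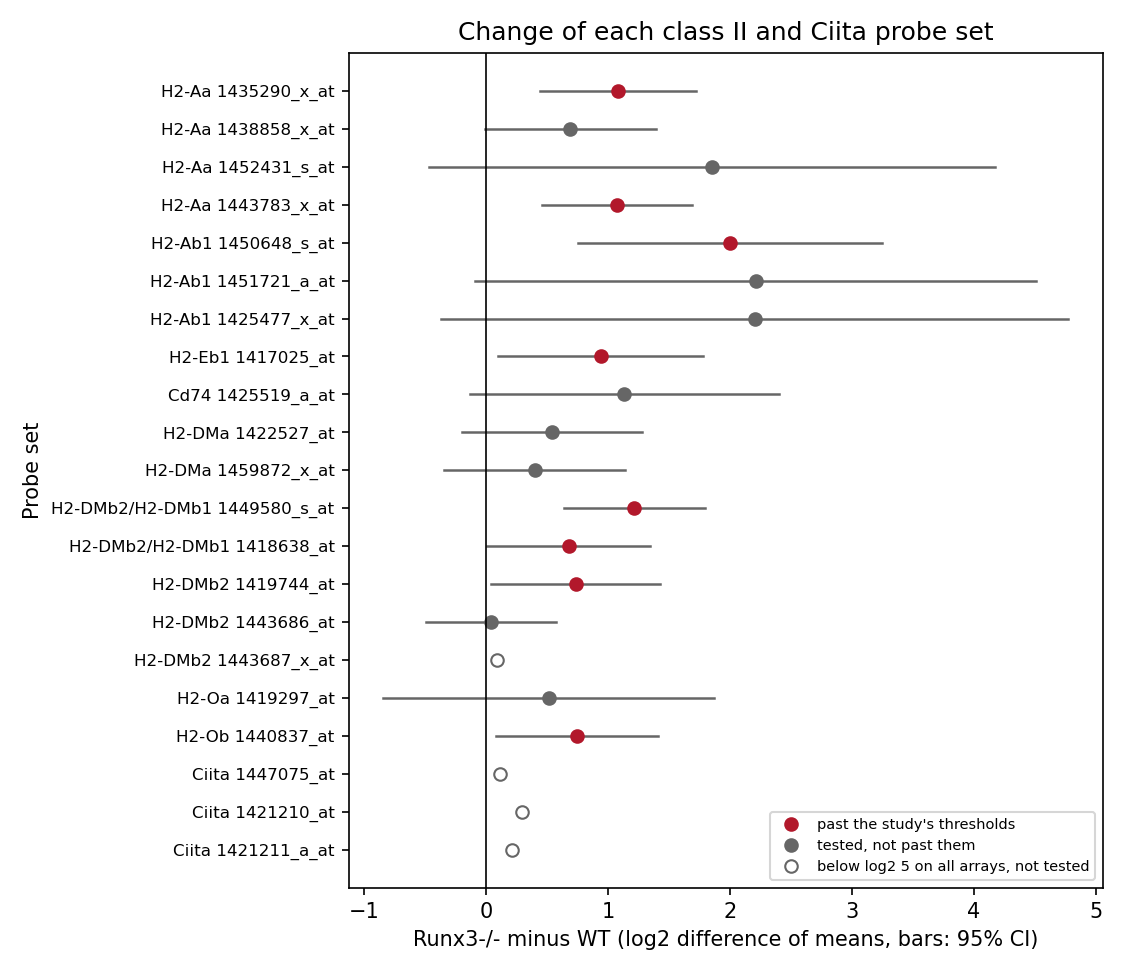
Runx3-/- minus WT difference (log2, horizontal axis) of each of the 21 probe sets, with 95% confidence intervals from limma. Red points passed the study's thresholds, grey points were tested and did not pass, and open points were below log2 5 on all arrays. Every point is right of 0, and the widest intervals belong to the probe sets of H2-Aa and H2-Ab1 with a low WT replicate 2.

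Other genes of the pathway were read by the brightest probe set of each gene. Of the 7 factors that bind class II promoters (RFX, NF-Y and Creb1), all tested, 0 were called higher and 1 lower. This was Rfxap, a subunit of RFX, at 9.11, 9.34 and 9.27 in Runx3-/- and 9.66, 9.83 and 10.12 in WT (difference -0.63, limma adjusted p = 0.262). Rfxank, another subunit, was also below WT on all Runx3-/- arrays without being called (difference -0.60, limma adjusted p = 0.381), and Rfx5, the third subunit, differed by 0.04. Of 16 regulators of Ciita transcription with a probe set, 13 were tested and 0 were called in either direction, and Pax5, Socs1 and Ifngr2 were below log2 5. Spi1 (PU.1), which drives Ciita in myeloid cells, was higher on all Runx3-/- arrays, at 9.61, 7.74 and 7.85 against 7.40, 6.29 and 7.66, but the difference of 1.28 was not called (limma adjusted p = 0.354). Bcl6, a transcriptional repressor, was lower on all Runx3-/- arrays, at 9.24, 9.25 and 8.55 against 9.46, 9.73 and 9.49 (difference -0.54, limma adjusted p = 0.373), and was not called.

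The 10 genes for protein breakdown in endosomes and lysosomes, all tested, had 0 called in either direction. Ctss, the protease that trims Cd74, was at 12.23, 12.14 and 11.88 in Runx3-/- and at 11.63, 12.31 and 11.94 in WT (difference 0.12, limma adjusted p = 0.839). Ctsh, another cathepsin, was at 9.01, 8.04 and 6.72 against 6.76, 6.95 and 6.18, with overlap, and was not called (difference 1.29, limma adjusted p = 0.339). Ctsc, which activates serine proteases of cytotoxic granules, was lower on all Runx3-/- arrays, at 13.53, 13.78 and 13.94 against 14.49, 14.20 and 14.03, and was not called (difference -0.49, limma adjusted p = 0.363). Ifi30, a thiol reductase that unfolds antigens, was at 10.34, 8.98 and 8.76 against 8.20, 8.69 and 8.64 and was not called (difference 0.85, limma adjusted p = 0.390). Marchf8, a ubiquitin ligase that removes class II from the surface, and the other tested gene for class II turnover were not called, and Marchf1 was below log2 5. Of 5 genes for the Cd74 ligand Mif and its receptor partners, 1 was called, Cxcr2, a chemokine receptor, at 6.38, 6.15 and 6.47 against 5.23, 4.54 and 4.52 (at least 2.39-fold higher, limma adjusted p = 0.0915). Of 8 costimulatory genes of antigen presenting cells, 4 were tested and 1 was called, Cd86, a ligand of CD28, at 5.78, 5.40 and 4.48 against 3.80, 3.84 and 4.05 (at least 1.31-fold higher, limma adjusted p = 0.193). Cd86 reached log2 5 on Runx3-/- arrays alone, and so had to be higher to be tested. Cd80, Cd40, Tnfsf4 and Cd70 were below log2 5, as were both class II receptors on the list, Cd4 and Lag3.

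Several markers of B cells and basophils were higher in Runx3-/-, as the called class II members were. Genes called higher share this direction by definition, and likeness within each genotype is given further below. In a bulk sample, more cells of a type and more RNA per cell cannot be told apart, and the part of these cells in the class II values was not tested. Levels of a marker list are given as the log2 of its summed linear values. For 15 B cell markers the summed level was 12.27, 11.37 and 11.52 in Runx3-/- and 11.03, 10.64 and 10.18 in WT, without overlap, and 6 of the 13 tested were called higher (Ms4a1, Cd79a, Cd22, Bank1, Fcrla and Ly86) and 0 lower. By the brightest probe set of each gene, 4.57% of all genes were called higher. The groups overlapped in Ms4a1 and Cd22, and the mean of Tnfrsf13c was below WT (-0.49). Cd79a, a chain of the B cell receptor complex, was at 5.57, 6.03 and 5.81 against 4.17, 2.36 and 3.49, and likewise reached log2 5 on Runx3-/- arrays alone, while Pax5, a defining B cell factor, and Cd180 were below log2 5 on all arrays. For 8 basophil markers the summed level was 15.16, 14.35 and 14.37 against 12.82, 12.76 and 12.96, and 6 of 8 were called higher (Mcpt8, Fcer1a, Ms4a2, Cpa3, Hdc and Gata2) and 0 lower. The mean of Cd200r3 was below WT (-0.36). The order of the arrays by class II level (below) was that of the B cell sums except for the lowest 2 WT arrays. The basophil sums had the same order within Runx3-/-, but in WT they fell from replicate 3 to replicate 1 to replicate 2.

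For 15 macrophage and monocyte markers the summed level ran from 10.33 to 13.97 in Runx3-/- and from 11.42 to 12.63 in WT, and 1 of the 14 tested was called higher, Adgre1, a surface receptor of macrophages, while Fcgr1 was below log2 5. The mean change was above 0 in 12 of the 14, with a median of 0.92, beside 12 of 13 and 0.98 for the tested B cell markers. The lowest of the 6 sums was that of Runx3-/- replicate 3. For 14 dendritic cell markers the summed level was 11.02, 9.83 and 9.95 in Runx3-/- and reached 12.02 in WT, where the lowest array was just under the highest Runx3-/- array. Most of this sum was Itgax, an integrin chain that NK cells can carry as well, at 9.91, 8.63 and 9.30 in Runx3-/- and 10.58, 11.84 and 11.41 in WT. The mean change was above 0 in 4 of the 7 tested markers, with a median of 0.27. Of these, 0 of the 7 tested were called higher and 1 lower (Itgax, at -2.00), and 7 were below log2 5, among them Xcr1, Siglech, Clec10a and Cd209a. Of 7 tested T cell markers 0 were called in either direction. For 11 NK cell markers the summed level was 17.20 to 17.36 against 17.15 to 17.46, with 0 called higher and 1 lower (Eomes).

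The class II genes were also compared array by array. The deviation of each probe set from its own mean over the 6 arrays, averaged over the brightest tested probe sets of the 9 symbols, was 0.75, 0.31 and 0.43 in Runx3-/- replicates 1 to 3 and -0.22, -0.70 and -0.57 in WT replicates 1 to 3. These probe sets include H2-DMb2 1419744_at, which reached log2 5 on Runx3-/- arrays alone and so had to be higher to be tested. H2-DMb2 is also named by the shared probe set 1449580_s_at, which is counted as a symbol of its own. Runx3-/- replicate 1 held the highest value in 6 of the 9 and WT replicate 2 the lowest in 5 of the 9. Among 2538 genes with an SD of at least 0.5 over the arrays, 103 had a Pearson correlation of at least 0.9 with this profile. The 10 genes most alike, members left out, were St6galnac3, Naip6, Ms4a2, Cd163, Rnase4, Itga1, Chrne, Nlrc5, Cxcr2 and Dmxl2, with r from 0.986 to 0.972. With each group's mean removed, the 10 most alike were Eml5, Pink1, Ptprv, Aktip, Fcrl1, Neurl3, Cd163, Naip6, Slc16a6 and Zfp105. Cd163, a scavenger receptor of macrophages, and Naip6 are in both sets. Of the tested member probe sets, the r with the mean of the other symbols was highest for H2-Aa 1435290_x_at (0.965), H2-DMb1 and H2-DMb2 1449580_s_at (0.940) and H2-Ab1 1450648_s_at (0.902). H2-DMa (0.441 and 0.378), H2-Oa (0.273) and H2-DMb2 1443686_at (0.067) followed the others least. The shared symbol and H2-DMb2 counted as different here. The mean for the shared probe sets thus still held H2-DMb2 1419744_at, and that for the probe sets of H2-DMb2 alone held 1449580_s_at. These values are a description over 6 arrays that share the genotype difference and the distribution that GC-RMA imposed.

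Ms4a2, the beta chain of the high-affinity IgE receptor of basophils and mast cells, was at 12.98, 11.98 and 12.19 in Runx3-/- and at 10.87, 9.95 and 9.46 in WT. Nlrc5, the transactivator of MHC class I genes and a relative of Ciita, was at 10.16, 10.09 and 9.92 against 9.17, 8.79 and 8.90. Both separated the groups fully. Over the lists, the median r with the class II profile was 0.90 for 8 basophil markers, 0.815 for 11 B cell markers, 0.444 for 14 macrophage and monocyte markers, 0.225 for 6 dendritic cell markers and -0.196 for 3 T cell markers with enough spread to be compared. Since the groups differ in the profile itself, genes that separate the genotypes tend to a high r here. With the group means removed, the median within-group r was 0.682 for basophil markers and 0.765 for B cell markers. It was 0.451 for macrophage and monocyte markers, 0.215 for dendritic cell markers and -0.049 for T cell markers. The highest median of all lists was 0.781, for the 5 compared regulators of Ciita transcription. These 5, of 13 tested, ran from -0.639 (Ifngr1) to 0.842 (Spib), and 0 of the 13 were called. Without removal of the group means, their median r was 0.593. Single markers ran from -0.488 (Mcpt8) to 0.885 (Ms4a2) in the basophil list and from -0.293 (Cd22) to 0.907 (Ms4a1) in the B cell list.

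**Figure D4:**
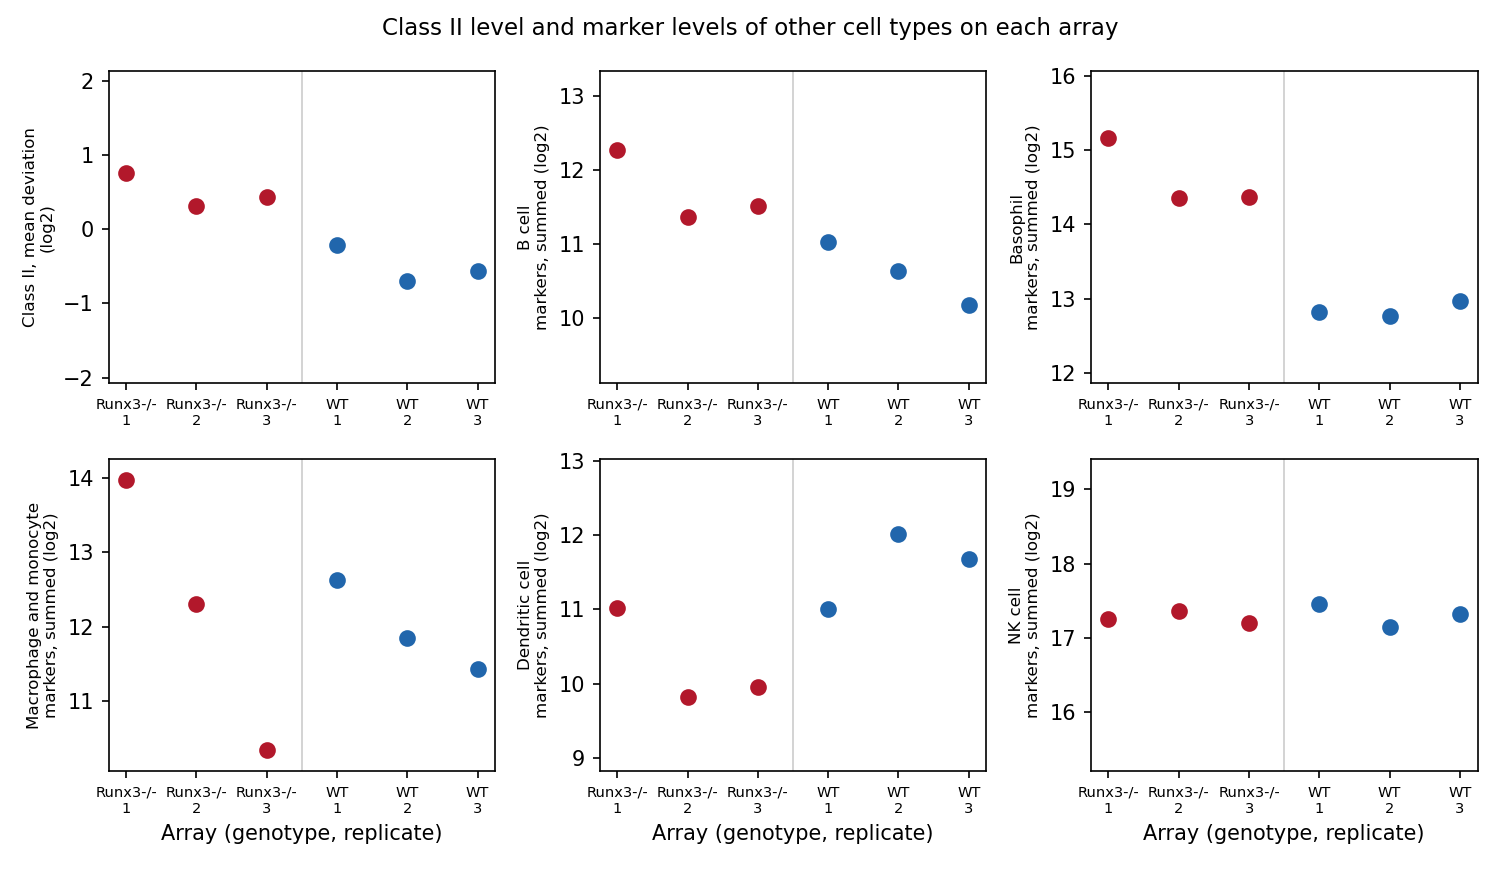
Mean deviation of the brightest tested class II probe set of each of 9 symbols (upper left, log2) and log2 of the summed linear values of 5 marker lists (other panels) on each of the 6 arrays (horizontal axis). Runx3-/- is in red and WT in blue, and the vertical axes cover equal ranges. Class II, B cell and basophil panels show all red points above all blue points, while the NK cell sums lie between 17.15 and 17.46.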

How the data were processed

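Total RNA of sorted splenic NKC was biotin-labelled and read on Affymetrix mouse arrays, 1 per sample (3 Runx3-/-, 3 WT). The labels and the study's methods differ on the labelling kit. The authors processed the scans with GC-RMA in Partek (no version in the submitters' processing notes) and deposited log2 values for 45101 probe sets. GC-RMA equalises array distributions, so a change in total RNA per cell is not visible, and dim values follow its background model. Between 37.8% and 39.4% of the probe sets reached log2 5 on an array.

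Probe sets were named from the platform annotation, and the 34754 with 1 symbol that matched a RefSeq gene table (GRCm38.p6) by gene identifier kept their symbols. The 64 controls were dropped. Probe sets at log2 5 or more on at least 1 array (19120) were fitted with limma 3.58.1 (lmFit and eBayes, R 4.3.3), Runx3-/- against WT on all 6 arrays without covariates, with Benjamini-Hochberg adjustment over all of them. The level of log2 5 stands in for the study's background level, which the sources used here do not state, and limma for its unnamed test. Where an array of the lower group was under log2 5, a fold is "at least", with such values raised to 5. The fit was tested on simulated data. The members, lists, tests, rules and alternatives were chosen with earlier results of these data known. Named are all member probe sets, called genes and up to 4 others of each list by smallest p, markers below log2 5, and the 10 genes most alike in pattern. Rfx5 and Ctss fall outside this rule and were picked after their values were seen, for their known roles. The groups come from the labels, and replicates are separate samples, described as individual mice. Replicate numbers were not used to pair samples in the main fit. Deviations from the group means correlated between same-numbered arrays at 0.003, -0.158 and 0.133, and between other arrays at -0.206 to 0.213. With 3 arrays per group, these values cannot settle whether samples were paired. Alternatives changed the filter, background floor, normalization, moderation, summary by gene and the arrays used.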

Additional observations from a re-analysis of the deposited data

How the results depend on the processing

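H2-Aa 1435290_x_at, H2-Ab1 1450648_s_at and the shared H2-DMb1 and H2-DMb2 probe set 1449580_s_at passed the study's thresholds in all 17 alternatives run on them, with differences of 0.93 to 1.30, 1.43 to 2.46 and 0.95 to 1.40. The alternative not run on them leaves out probe sets with names ending in _x_at or _s_at, and so all of these. The members called there (1417025_at, 1418638_at, 1419744_at and 1440837_at) each lost the call when some single array was left out. The number of members called higher was 8 of 17 tested (47.1%, beside 6.85% of all). It was 4 of 17 without moderation of the variances (23.5%, beside 3.35%) and 12 of 17 with array weights (70.6%, beside 8.98%). It was 5 of 9 with the mean of a gene's probe sets (55.6%, beside 4.36%). Without probe sets whose names end in _x_at or _s_at it was 4 of 9 (44.4%, beside 7.41%). When 1 array was left out, it ran from 4 of 16 without Runx3-/- replicate 2 (25%, beside 4.48%) to 11 of 17 without WT replicate 1 (64.7%, beside 10.6%). With the replicate block it was 11 of 17 (64.7%, beside 7.77%), and the block moved BH calls over all probe sets from 16 to 2. Members past BH 5% ranged from 0 to 1 when 1 array was left out (Cd74, without WT replicate 1). Over all probe sets, BH calls were 6 without a filter, 8 with values floored, 31 with trend and robust options, 0 without moderation, 139 with array weights, 61 in a refit to the brightest probe set of each gene (9886, fields with several symbols included) and 3 to 184 with 1 array left out. Calls by the study's thresholds, 2606 in all, were 1552 without moderation, 1340 in that refit, 1020 with gene means and 1765 to 3822 with 1 array left out. Of these calls 49.7% were lower in Runx3-/-, and 64.0% in that refit and 61.8% with gene means. H2-DMb2 1443686_at, near log2 5, changed sign with values floored (-0.011), after quantile normalization (-0.095), without Runx3-/- replicate 3 and without WT replicate 3 (-0.11 to 0.093 with 1 array left out), and H2-Oa without Runx3-/- replicate 1 (-0.14 to 0.97 with 1 array left out). Of 274 values of single probe sets under alternatives, 215 kept direction and side of the thresholds, 25 gained a call, 29 lost one and 5 changed sign. The cause was not tested.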
